A study of Drosophila melanogaster with 3 samples.

Results

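The mitotic kinase and spindle checkpoint genes described here are 8 named genes of Drosophila melanogaster, aurA, aurB, polo, Mps1, Bub1, BubR1, Bub3 and mad2, out of 13968 annotated protein-coding genes on the chromosome arms. They are taken by name, and the rule sets no threshold on a measured value. Chromatin bound by Elba2 was recovered from whole embryos of mixed sex aged 0 to 4 h and sequenced (ChIP-seq). The embryos came from strain CG9883-GFP, 1 transgenic line that carries Elba2 with green fluorescent protein (GFP) at its C-terminus, and an antibody against GFP was used for the pull-down. The samples are 3 biological replicates of this 1 group, per the labels, and the chromatin was sheared to 200 to 800 bp. No untagged, input or other control sample was used here, so the values are levels within 1 group, with no comparison of conditions and no test. How the tagged protein compares with Elba2 of wild-type flies was not measured.

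Aurora A, Polo and their relatives are kinases that drive centrosome maturation, spindle assembly and chromosome segregation. The spindle checkpoint, built around Mps1, Bub1, BubR1, Bub3 and Mad2, holds anaphase back until every kinetochore is attached to the spindle, by inhibiting the Cdc20 form of the anaphase-promoting complex (APC/C). The early fly embryo runs through rapid nuclear divisions on maternally supplied products before its own genome is widely transcribed. Elba2 is a BEN-domain protein of the ELBA complex, which binds insulator elements in early embryos. Binding beside a gene does not by itself say how that gene is transcribed, and transcripts were not measured.

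Sequence is shown first, because the sites near these genes differ in the short words they hold. The words searched were CCAATAAG, known as the ELBA site, CCAATTGG, a palindrome known as a target of Insensitive, another BEN-domain protein, GGTCACAC, the site of the promoter factor M1BP, and TATCGATA, the DNA replication-related element (DRE) found at promoters of many proliferation genes. Capitals mark these words, both strands were searched, and each sequence is given 5′ to 3′ along the member gene's strand, from the Release 6 genome (build dm6). The first pair is the DNA at the 2 optimal summits upstream of aurB, chr2L:10858835-10859004 and chr2L:10859017-10859217, minus strand. The next is the whole stretch between the start sites of Bub3 and its neighbour Cap-D2, chr3R:29675422-29675650, minus strand, and then the mad2 promoter at its summit, chr3L:5813098-5813298, minus strand. The aurA stretch is the part of its strongest peak before the start site, chr3R:11962952-11963123, plus strand, and is shown because it holds none of the words.
aurB upstream, nearer summit: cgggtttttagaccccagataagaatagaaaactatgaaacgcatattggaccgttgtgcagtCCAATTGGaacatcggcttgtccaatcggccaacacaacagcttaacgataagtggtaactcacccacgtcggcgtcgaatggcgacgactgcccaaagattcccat
aurB upstream, farther summit: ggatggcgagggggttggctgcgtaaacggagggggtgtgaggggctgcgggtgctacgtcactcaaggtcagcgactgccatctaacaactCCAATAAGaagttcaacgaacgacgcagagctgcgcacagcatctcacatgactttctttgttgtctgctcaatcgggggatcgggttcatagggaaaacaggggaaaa
Bub3 to Cap-D2: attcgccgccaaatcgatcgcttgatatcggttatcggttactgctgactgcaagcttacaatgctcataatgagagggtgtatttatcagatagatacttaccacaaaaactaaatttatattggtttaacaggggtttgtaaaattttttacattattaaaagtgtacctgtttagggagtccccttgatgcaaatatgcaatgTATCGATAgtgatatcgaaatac
mad2 promoter: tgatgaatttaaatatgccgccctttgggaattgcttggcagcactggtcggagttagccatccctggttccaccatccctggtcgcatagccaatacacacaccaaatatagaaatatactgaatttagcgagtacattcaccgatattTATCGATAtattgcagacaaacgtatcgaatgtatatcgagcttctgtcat
aurA upstream of its start: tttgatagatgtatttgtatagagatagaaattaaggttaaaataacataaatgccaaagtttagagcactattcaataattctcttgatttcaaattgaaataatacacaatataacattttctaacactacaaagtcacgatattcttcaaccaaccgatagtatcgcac

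A set of 30-base stretches shows further words, those at the start sites of aurB, Bub1 and Mps1 and the one under the strong peak beyond the 3′ end of polo. They lie at chr2L:10858077-10858106 on the minus strand, chr2L:5278992-5279021 on the plus strand, chr3R:17671266-17671295 on the plus strand and chr3L:20313650-20313679 on the plus strand. Capitals again mark the word.
aurB start site, M1BP site: ttctagcatgcGGTCACACtaatctcagca
Bub1 second start site, DRE: ttctatcgcacTATCGATAaccttgtgcat
Mps1 start site, M1BP site: ttttgaactttGGTCACACttgaataaaaa
polo downstream (alphaSnap), M1BP site: accacttctgcGGTCACACcaagtcagcat

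Elba2 peaks stood at the start sites of aurA, polo and Bub3. The measure was the authors' optimal set of 3276 peaks, which they took by the irreproducible discovery rate (IDR), a comparison of peak ranks between replicates. A gene was counted as bound when the distance from any of its annotated transcription start sites (TSSs) to an optimal summit was at most 500 bp. By that rule 3 of 8 members were bound, against 13 of 44 other mitotic genes (29.5%) and 17.9% of all protein-coding genes (exact Clopper-Pearson 95% interval 17.2 to 18.5%, which covers counting error over genes only). With 8 genes, 3 is a small count, and it was not tested against the background. A stricter peak set, the 1844 optimal peaks matched among the 3276 strongest regions of all 3 replicates, counted aurA alone, against 10 of 44 other mitotic genes and 10.7% of all genes. Sets that ask for a match in both of 2 replicates counted aurA and Bub3 without replicate 3 (13.8% of all genes), and aurA alone without replicate 1 (11.6%) or without replicate 2 (12.4%).

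Weaker regions stood at most of the other members. The authors' permissive lists hold peaks together with background regions, 28496 for the 3 replicates pooled and 29295, 30000 and 30000 for replicates 1, 2 and 3. A pooled region lay within 500 bp of a TSS in 7 members, all but aurB, against 35 of the 44 other mitotic genes and 53.2% of all genes. A region was there in each of the 3 replicates in 6 members, all but aurB and BubR1, against 27 of 44 other mitotic genes and 37.6% of all genes. These lists hold background regions by design, and the counts were not tested. The lists' signal is the authors' own, of unstated scale and with no replicate error, and the number of reads behind a region was not used here, so its depth is unknown. Ranks are by signal within each list, with 1 the strongest, and the lowest signal in the optimal set was 109.

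**Figure D1:**
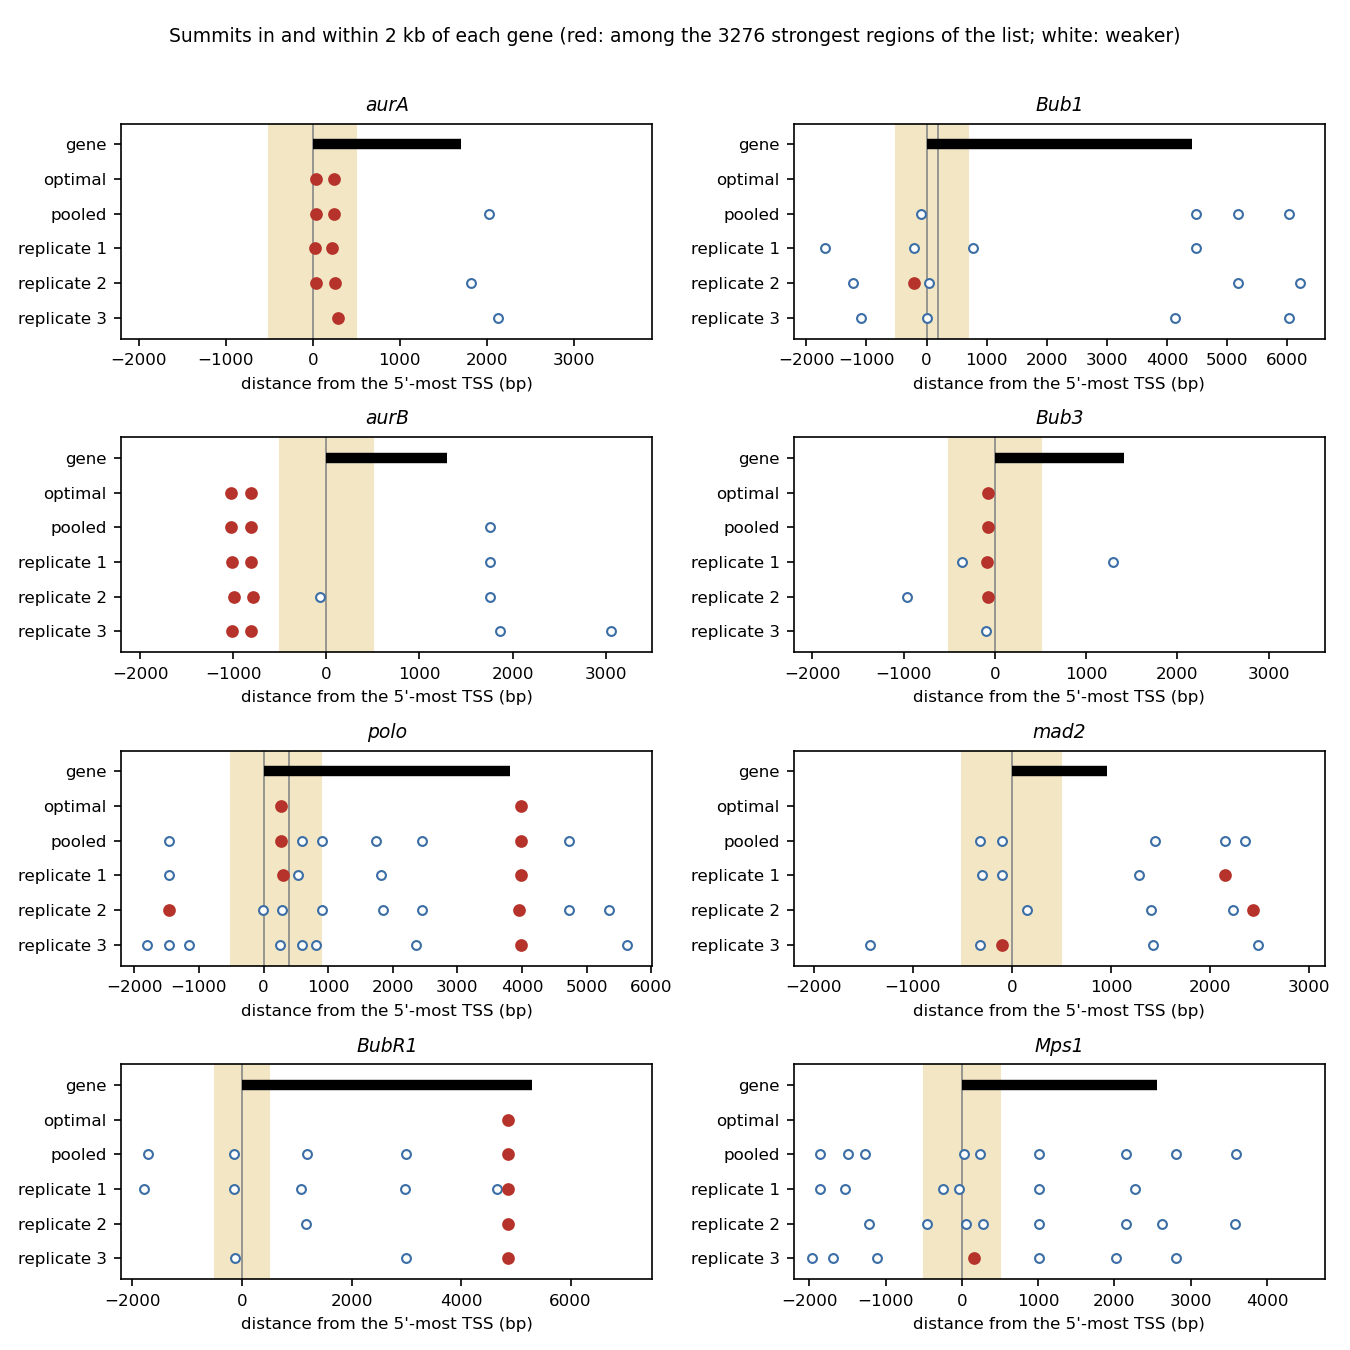
Summits in each list along the 8 genes, drawn 5′ to 3′ by distance from the 5′-most TSS in bp, with the gene as a black bar, TSSs as vertical lines and 500 bp on each side of them shaded. Red points are among the 3276 strongest regions of their list and white points are weaker, and red optimal points fall in the shaded zone for aurA, polo and Bub3 alone, while those of aurB and BubR1 and the downstream one of polo lie outside it.

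aurA encodes Aurora A, the kinase of centrosome maturation and spindle assembly, and lies at chr3R:11963124-11964826 on the plus strand (FBgn0000147, 1 TSS). It held the strongest TSS binding of the 8 genes, with 2 optimal peaks. The first had its summit 40 bp inside the gene, in the 5′ UTR, with a signal of 264 and pooled rank 545. The second had its summit at 239 bp, in the coding exon, with a signal of 184 and rank 1236. The strongest aurA TSS region of each list ranked 218, 1076 and 306 in replicates 1, 2 and 3. An aurA region was thus among the 3276 strongest in every one, though not at the same summit. Replicates 1 and 2 each listed a region near both summits, while replicate 3 listed 1 region, 290 bp inside the gene. That region was 250 bp from the first optimal summit and 51 bp from the second. The intervals of the 2 optimal peaks overlap by 225 bp and their summits are 199 bp apart, about the length of the shortest fragments, so at this resolution they cannot be told apart as separate sites. The start of CG3281, on the opposite strand, is 359 bp from the first summit, and this peak cannot be assigned to 1 of the 2 genes.

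aurB encodes Aurora B, the kinase of the chromosomal passenger complex, which corrects faulty kinetochore attachments, and lies at chr2L:10856797-10858094 on the minus strand (FBgn0024227, 1 TSS). Its own start was the emptiest of the 8. Replicate 2 alone listed a region there, 73 bp upstream with rank 28020 of 30000, and replicates 1 and 3 and the pooled list had none. The strongest peak near any of the 8 genes nevertheless lay 810 bp upstream of it, in an intron of the neighbour Stam, with a signal of 414 and pooled rank 156. It ranked 178, 272 and 120 in replicates 1, 2 and 3, with summits 0, 19 and 1 bp from the optimal one. A second optimal peak followed 1023 bp upstream of aurB, also in the Stam intron, with a signal of 140 and ranks 1359, 1105 and 1954. The strongest of these summits is 368 bp from the Stam TSS, so by the 500 bp rule it belongs to Stam, a gene of endosomal sorting. With a limit of 1000 bp aurB would count as bound.

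polo encodes the founding member of the Polo-like kinases and lies at chr3L:20309654-20313466 on the plus strand (FBgn0003124, TSSs at 20309654 and 20310047). Its optimal summit was in the 5′ UTR of the transcript from the first TSS, 116 bp upstream of the second TSS, with a signal of 130 and pooled rank 2395. The region ranked 1650, 4565 and 4869 in replicates 1, 2 and 3, with summits 24, 1 and 16 bp from the optimal one. The site was thus found at the same place in all 3, and among the 3276 strongest regions in replicate 1 alone. A stronger optimal peak stood beyond the 3′ end, at 20313641, with a signal of 191 and ranks 1214, 1675 and 770. Its summit is 9 bp from the TSS of alphaSnap, the next gene, whose product takes part in disassembly of membrane-fusion complexes.

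Mps1 encodes the kinase that starts checkpoint assembly at unattached kinetochores and lies at chr3R:17671271-17673828 on the plus strand (FBgn0000063, 1 TSS). It had no optimal peak within 2 kb. Its strongest pooled TSS region, with the summit 31 bp inside the gene in the 5′ UTR, had a signal of 88.6 and rank 4702. Its best TSS regions ranked 3338, 3408 and 2297 in replicates 1, 2 and 3, the first 2 just beyond the 3276 strongest. Their summits were spread, at 246 bp upstream and 57 and 156 bp inside the gene, and the TSS of CG7523 is 407 bp from the pooled summit. The replicate 1 summit of rank 3338 is nearer to CG7523, 130 bp from its TSS. A second replicate 1 region, 39 bp upstream of Mps1, ranked 4013.

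Bub1, a checkpoint kinase that helps to bring BubR1 to kinetochores, lies at chr2L:5278865-5283283 on the plus strand (FBgn0031696, TSSs at 5278865 and 5279053). It too had no optimal peak within 2 kb. Its pooled TSS region, 87 bp upstream of the first TSS, had a signal of 96.6 and rank 4032. Ranks in replicates 1, 2 and 3 were 4374, 2854 and 4600, a narrow range, with the strongest summits 202 bp upstream, 206 bp upstream and 13 bp inside. The pooled summit is 230 bp from a TSS of Nin.

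BubR1, part of the mitotic checkpoint complex that holds the APC/C, lies at chr2R:5969099-5974385 on the minus strand (FBgn0263855, 1 TSS). Its start site carried weak regions only. The pooled one, 145 bp upstream, had a signal of 46.9 and rank 16305, and the replicate ranks were 15250 in replicate 1 and 7426 in replicate 3, with none in replicate 2. Far inside the gene the values were otherwise. An optimal peak in a coding exon, 4852 bp from the TSS and within the 3′ part of the gene, had a signal of 217 and pooled rank 832. It ranked 1259, 1279 and 474 in replicates 1, 2 and 3, with summits 2, 4 and 1 bp from the optimal one. The nearest TSS of any protein-coding gene, that of CG7881, is 2677 bp from it.

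Bub3 encodes the WD-repeat partner that brings Bub1 and BubR1 to kinetochores, and lies at chr3R:29674007-29675421 on the minus strand (FBgn0025457, 1 TSS). Its optimal summit was 79 bp upstream of the TSS, between genes, with a signal of 153 and pooled rank 1769. The region ranked 1812, 2304 and 4583 in replicates 1, 2 and 3, with summits 3, 0 and 17 bp from the optimal one. All 3 replicates therefore placed it within 17 bp, and replicates 1 and 2 had it among their 3276 strongest. The same summit is 151 bp from the TSS of Cap-D2, a condensin subunit gene read in the opposite direction, and the 2 TSSs are 230 bp apart. Fragments of 200 to 800 bp cannot assign the peak to 1 of them.

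mad2, whose product captures Cdc20 at unattached kinetochores, lies at chr3L:5812135-5813093 on the minus strand (FBgn0035640, 1 TSS). It was the nearest of the unbound members to the optimal set. Its pooled region, 105 bp upstream, had a signal of 105.5 and rank 3448, which is 172 ranks below the last optimal peak, while polo was the weakest member inside. The replicates disagreed on it. It ranked 3383 in replicate 1 and 1755 in replicate 3, with summits 4 and 2 bp from the pooled one. Replicate 2 had only a weak region inside the gene, of rank 18344 and 261 bp from that summit.

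**Figure D2:**
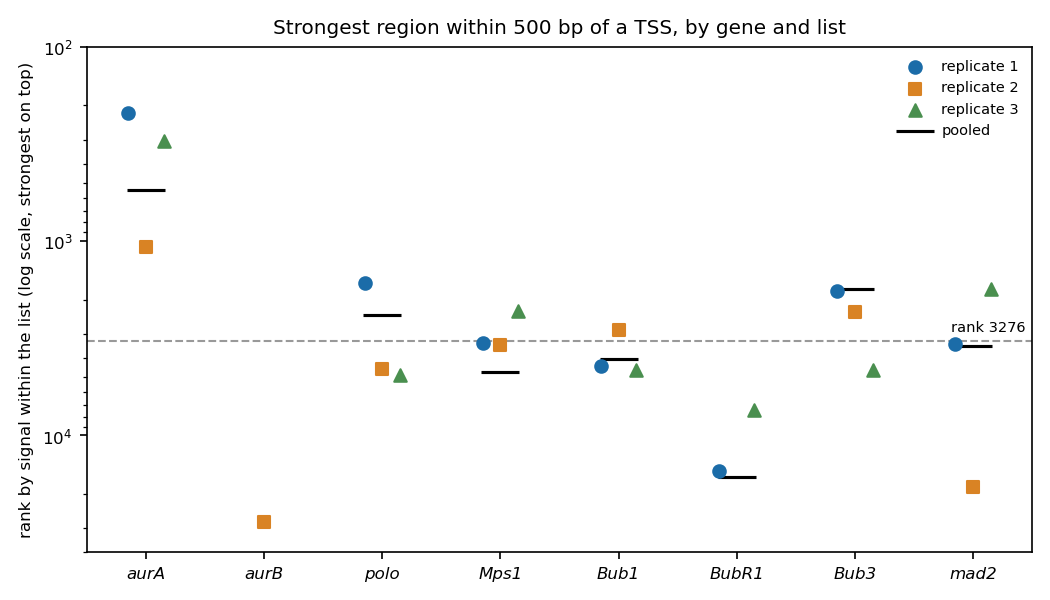
Rank of the strongest region within 500 bp of a TSS of each gene, in replicates 1, 2 and 3 (symbols) and the pooled list (bars), on a log axis with the strongest on top and rank 3276 dashed. The aurA symbols, from 218 to 1076, lie above those of every other gene, and the mad2 symbols are the most spread of the genes with a region in all 3 replicates.

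Among the 6 members with a TSS region in every replicate, aurA stood first in each of them. Its mean log10 rank was 2.62 ± 0.37 (SD, n = 3 for all), against 3.43 ± 0.21 for Bub3, the next, and their ranges did not overlap. The aurA ranks are not all of 1 summit, as the replicate 3 region lay 250 bp from the first optimal summit. At the second aurA summit the nearest regions ranked 1648, 2454 and 306 in replicates 1, 2 and 3. That range overlaps the Bub3 ranks of 1812, 2304 and 4583, and Bub3 came ahead in replicate 2. After Bub3 came Mps1 at 3.47 ± 0.10, polo at 3.52 ± 0.26, Bub1 at 3.59 ± 0.11 and mad2 at 3.68 ± 0.53. Each of these neighbours differed by 0.04 to 0.09, less than their spread, and their ranges overlapped. Some of the Mps1 and Bub1 ranks are those of regions nearer to the TSS of CG7523 or Nin. The order by mean rank differs from the pooled order, where Mps1 came after polo, mad2 and Bub1. By the authors' −log10 q-value in place of the signal, aurA, polo and Bub3 were tied at the highest pooled value, 3.69, so that column gives no order among these 3. For aurA alone, each of the 3 replicates had its own strongest TSS region among its 3276 strongest. That is 1 of 8 members, against 10 of 44 other mitotic genes and 10.9% of all genes. In at least 1 replicate 6 of 8 members reached that limit, against 21 of 44 other mitotic genes and 24.4% of all genes. Bub1 did so only through the replicate 2 region that lies nearer to the Nin TSS.

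Set among all bound genes, aurA was strong and the other bound members were not. Of 2495 bound genes, whose median signal was 171, 505 (20.2%) had a stronger peak than aurA, 1500 (60.1%) a stronger one than Bub3 and 1919 (76.9%) a stronger one than polo. Over the genes with any pooled TSS region, the median signal was 105.5 in the 7 members and 79.7 in all 7432 genes. The genes whose replicate ranks were closest to a bound member's, among 2460 candidates and by the distance between log10 ranks over 3 replicates, were named by a rule and not by function. For aurA they were Ubc6 (distance 0.23) and PIG-L with psidin, which share a peak (0.25 each). For polo they were ric8a (0.02) and Ski6 with CG16812 (0.03 each), and for Bub3 CG11069, CG31121 and Pax (0.06 each). aurA's closest genes were farther from it than those of polo and Bub3 were from them. On a log scale fewer regions lie per unit among the strongest ranks, so this distance depends on rank and is no separate observation.

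**Figure D3:**
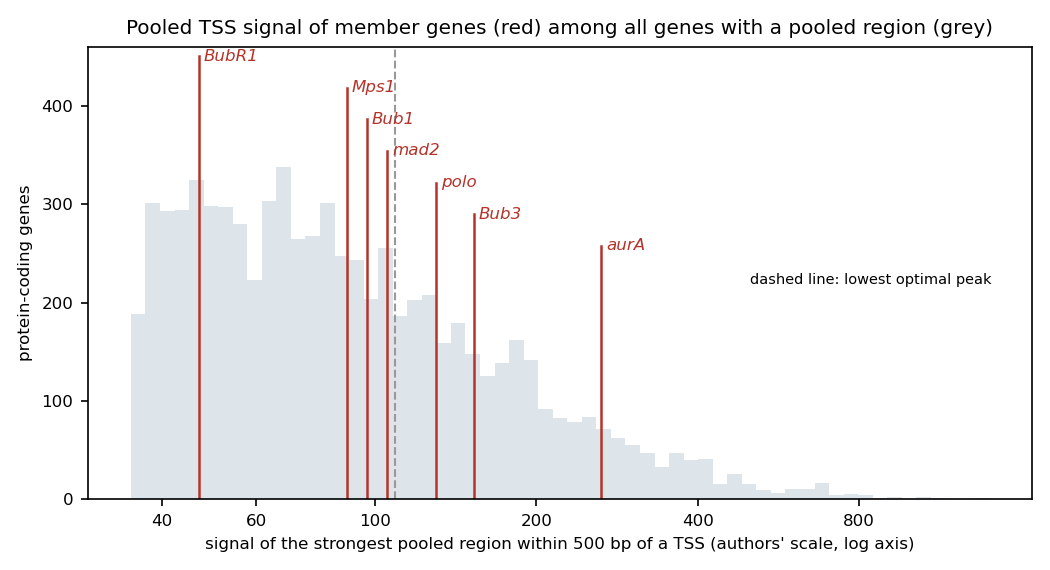
Signal of the strongest pooled region within 500 bp of a TSS (log axis, authors' scale) for the 7 members that have one (red lines, heights staggered for legibility) over the histogram of all 7432 protein-coding genes with one (grey, genes per bin). aurA at 264 lies in the upper tail, polo at 130 and Bub3 at 153 above the lowest optimal signal of 109, and the other 4 members below it.

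The aurA and Bub3 peaks were then set beside all optimal peaks for how often the replicates gave them. The first aurA summit had a replicate summit within 200 bp in 2 replicates, as did 92 of 3276 optimal peaks, whereas 97.1% had one in all 3. The second aurA summit and the Bub3 summit were of this common kind. For replicate regions among the 3276 strongest, the second aurA summit was matched in all 3, as were 1844 optimal peaks (56.3%). The Bub3 summit and the first aurA summit were matched in 2, as were 1017 peaks (31.0%), and the polo summit in 1, as were 395 (12.1%). The optimal set was taken from these same lists, so a match in them is no independent check.

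Taken over the gene and 2 kb on each side, 5 of 8 members had an optimal summit, aurA, aurB, polo, BubR1 and Bub3, against 22 of 44 other mitotic genes and 31.8% of all genes. These were 8 summits, of which 4 lay at a member's TSS, 1 in the gene body, 2 upstream and 1 downstream. The pooled list held 38 regions over the same spans and replicates 1, 2 and 3 held 33, 37 and 35. The 4 summits away from the members' starts had each a match within 200 bp among the 3276 strongest regions of all 3 replicates, as did 56.3% of all optimal peaks. Of the 4 at their starts, the second aurA summit alone did. With a limit of 500 bp the first aurA summit was matched in all 3 too. The aurA pair and the aurB pair have overlapping intervals, so these counts are of summits and not of separate sites.

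The words were then located at the same sites. Within 100 bp of the summit, the ELBA site or the palindrome was present at 3 of the 4 optimal summits away from the members' starts and at none of the 4 at their starts. The aurB pair has summits 213 bp apart and overlapping intervals, so like the aurA pair it cannot be told apart as separate sites, and these counts are of summits. The palindrome lay 33.5 bp from the stronger aurB upstream summit and 5.5 bp from the BubR1 summit, and the ELBA site 4.5 bp from the farther aurB summit, measured to the middle of the word. The fourth, at alphaSnap, had the M1BP site at 23.5 bp. Over all optimal peaks, 15.4% held the ELBA site or the palindrome, 12.04% of the 1927 within 500 bp of a protein-coding TSS and 20.3% of the 1349 others. That split is by the TSS of any gene, not by the members' own starts. The stronger aurB summit, 368 bp from the Stam TSS, and the alphaSnap summit, 9 bp from its TSS, are among the 1927. The farther aurB summit and the BubR1 summit are among the 1349. At the member starts, Bub3 had the DRE at 59.5 bp and aurA and polo had none of the words. Among the weaker pooled summits, mad2 had the DRE at 53.5 bp, Mps1 the M1BP site at 21.5 bp, and Bub1 and BubR1 none. The M1BP site was present at 10.6% of optimal peaks at a TSS and 1.11% of the others, and the DRE at 8.51% and 0.815%. Within 100 bp of a TSS, bound or not, 7.55% of all protein-coding genes had the M1BP site and 8.48% the DRE. The found copies did not overlap each other, and a match in these few windows describes the sequence and does not show contact.

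**Figure D4:**
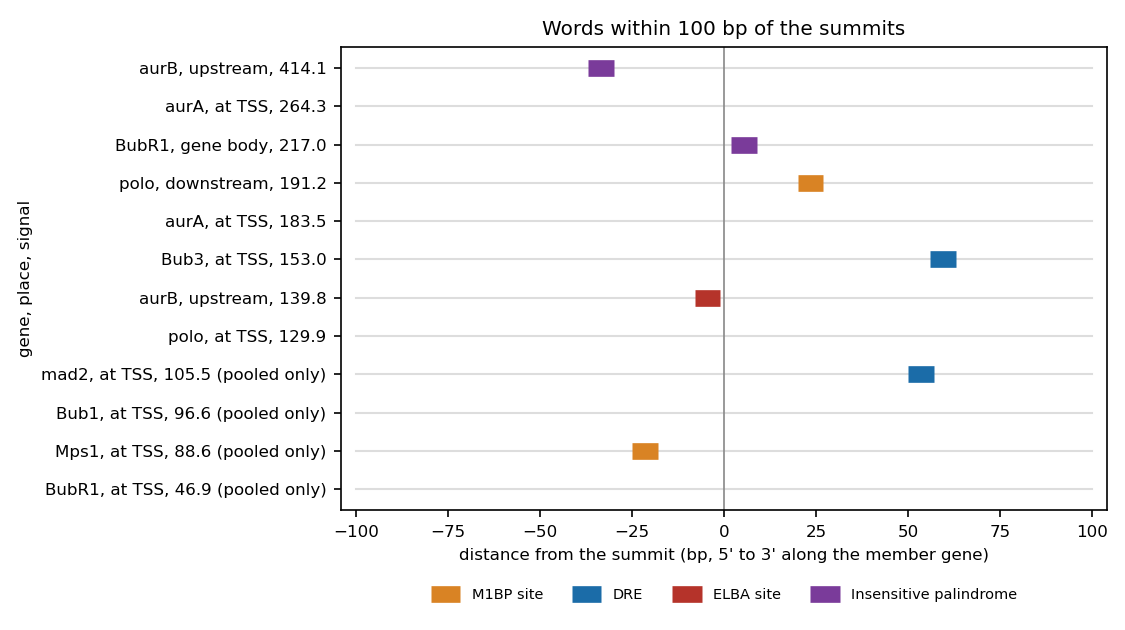
Position of each word within 100 bp of the 8 optimal and the 4 pooled-only TSS summits (one line each, strongest signal on top, the authors' signal after the place), in bp along the member gene with the summit at 0. Red and purple blocks, the ELBA site and the palindrome, stand on lines of aurB and BubR1 away from their starts, and blue and orange blocks, the DRE and the M1BP site, on lines of Bub3, mad2, Mps1 and the site downstream of polo.

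Counted from the start sites rather than from the summits, 6 of 8 members had the DRE or the M1BP site within 100 bp of a TSS, against 14 of 44 other mitotic genes and 15.3% of all genes. This count was made after the values had been seen. The DRE was at BubR1, Bub1, Bub3 and mad2, 4 of 8 members, against 8 of 44 and 8.48%. In each it ended between 16 and 48 bases upstream of the TSS, 16 at Bub3, 26 at BubR1, 43 at the second Bub1 TSS and 48 at mad2. The M1BP site was at aurB, across its TSS, and at Mps1, just inside it, 2 of 8 members against 6 of 44 and 7.55%. The ELBA site was at none of 8, against 2 of 44 and 0.766%, and the palindrome at none of 8 or 44, against 0.952%. The members with none of the 4 words there were aurA and polo, which had the strongest and the weakest of the 3 bound starts.

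The other genes of mitosis were taken by role from a list of 44. Over all protein-coding genes 17.9% were bound, and the counts by role are small and were not tested against that share. Of 14 chromosomal passenger genes and kinase partners, 5 were bound. Among them SAK, the Polo-like kinase of centriole duplication, had a signal of 227 from a peak shared with Cdk12, endos, an inhibitor of the phosphatase PP2A, 177 from one shared with CG6650, and Myt1, an inhibitory kinase of Cdk1, 172 from one shared with PGRP-LD and Pmi. bora, an activator of Aurora A, was not bound and had a pooled signal of 106, and borr, a chromosomal passenger subunit, had no pooled TSS region. Of 5 checkpoint and RZZ genes 1 was bound, rod, a subunit of the RZZ complex that loads dynein and Mad proteins at kinetochores, with 169 at a start shared with pygo. Mad1, the kinetochore receptor of Mad2, and Spindly, a dynein adaptor, had no pooled TSS region. Of 9 kinetochore genes 3 were bound, Cenp-C, the inner kinetochore scaffold, at 209, Spc105R, an outer kinetochore scaffold on which Bub proteins assemble, at 190, and Spc25, an Ndc80 complex subunit, at 187 from a peak shared with grsm. cid, the centromeric histone, had 105 and cal1, its loading factor, 75.6, both below the optimal set. Of 16 genes of the APC/C, separase and securin group 4 were bound. Cdc16 had 247 at a start shared with orb, mr 191 and shtd 169 at a start shared with CG6294 and CG6299, all APC/C subunits, while APC10 had 65.5 and APC4 50.8 and were not bound. The pooled aurA signal of 264 was above that of each of these 44 genes, and the polo and Bub3 signals lay within their range. By replicate, aurA ranked ahead of all 44 in replicates 1 and 3, at 218 and 306. In replicate 2 SAK, Cdc16 and Cenp-C, at 533, 728 and 764, ranked ahead of aurA at 1076.

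**Figure D5:**
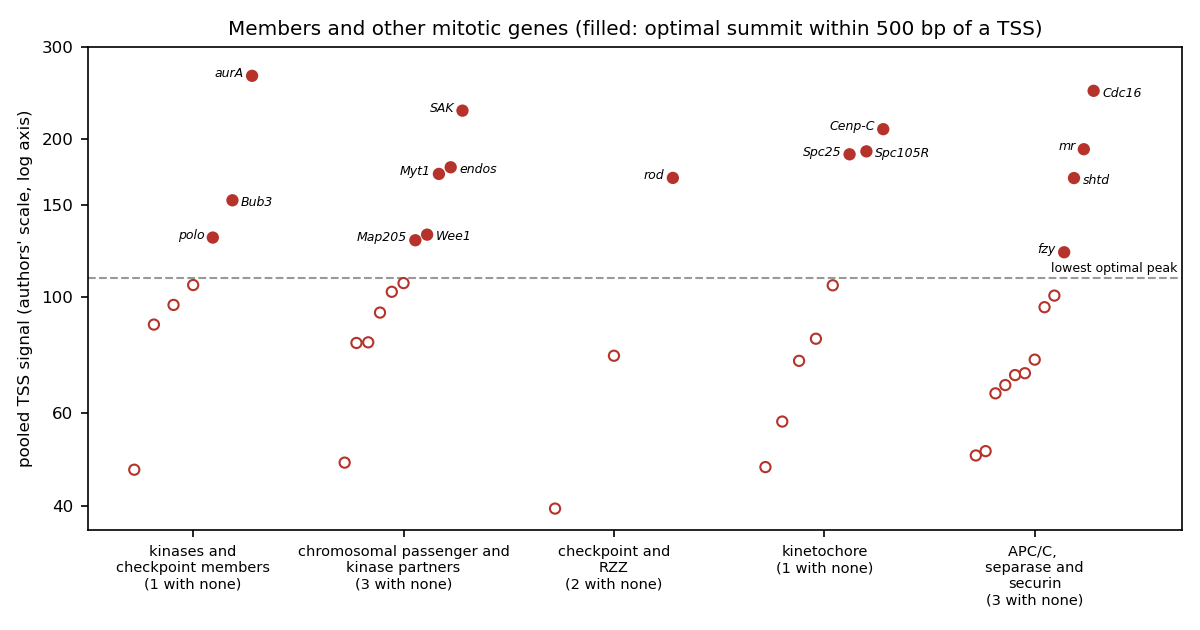
Pooled signal of the strongest region within 500 bp of a TSS (log axis, authors' scale) for the members and for 44 other mitotic genes by role, 1 point a gene, filled where an optimal summit lies there, with the number of genes without a region in brackets. aurA at 264 is the highest point, followed by Cdc16 at 247 and SAK at 227, and each group has genes on both sides of the dashed lowest optimal signal.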

How the data were processed

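Elba2-GFP ChIP-seq peak lists of 3 biological replicates were read. Per the deposited file notes, the authors called peaks and background for each replicate and for the pooled replicates, each against a control library not used here, and took an optimal set by IDR. The sources used here do not give the IDR threshold, nor the aligner or caller. The signal column is the authors' deposited value of unstated scale and was used within a list only. The deposited −log10 q-value column served as another ranking key, and the deposited summit offset gave the summit. The optimal set was exactly the 3276 strongest pooled regions. The dm3 lists were not used. Depth is unknown.

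Genes came from Ensembl release 115 (FlyBase 6.54) and sequence from the Release 6 genome in NCBI RefSeq. Other mitotic genes were matched by symbol, 1 of them (lmg) through a synonym. Summits were taken as 1 site up to a distance of 200 bp. Coordinates are 1-based on dm6. Python 3.11.15, numpy 2.4.6, pandas 2.3.3 and scipy 1.17.1 were used, and the functions were tested on simulated data.

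Members, lists and words were chosen with earlier results of these data known. All 8 members were named, with genes sharing a bound member's summit. In each role of other mitotic genes the 3 bound genes with the highest signal and the 2 unbound genes first in the alphabet were named, and for each bound member the 3 genes with the closest replicate ranks. Genes beside other sites and the genes that share a peak with a named gene were named once their values had been seen. Other settings changed distances, start sites, peak placement, the peak set, the replicates, the ranking key and the word window.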

Additional observations from a re-analysis of the deposited data

How the results depend on the processing

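The count of 3 bound members stayed at 3 with a TSS distance of 250 bp (14.5% of all genes), with interval overlap in place of the summit (19.4%) and with the 5′-most TSS only (16.5%). It became 4 at 1000 bp, with aurB added (21%). It fell to 1, aurA, with the stronger 1638 optimal peaks and with the 1844 peaks among the 3276 strongest of every replicate. The share of all genes then was 10% and 10.7%. Leaving out 1 replicate and asking for a match in both others, which changes the peak set as well and leaves 2114 to 2366 peaks, gave 1 to 2 members, 10 to 11 other mitotic genes and a share of 11.6 to 13.8%. These values do not separate the omission from the stricter set. The strongest regions of 1 replicate alone gave 3 members each time, aurA, polo and Bub3 in replicate 1 (18.7% of all genes), aurA, Bub1 and Bub3 in replicate 2 (17.4%), and aurA, mad2 and Mps1 in replicate 3 (16%). With the limit halved to the 1638 strongest regions, the Bub3 summit was matched in 0 replicates. The cause of these changes was not tested. Leaving out 1 replicate moved the mean rank between 262 and 691 for aurA and between 2058 and 3444 for Bub3. Ranked by the −log10 q-value, aurA, polo and Bub3 each had pooled rank 1 through ties, in place of 545, 2395 and 1769 by signal, and mad2 had 3428 in place of 3448. No paired analysis was possible because the replicates form 1 group. Unknown depth limits what can be said of weak regions.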

Other observations

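Some regions outside the optimal set recurred at nearly the same base. In a coding exon of Mps1 a region had its summit 1006 bp inside the gene in replicate 1 and the pooled list, 1009 bp in replicate 2 and 1005 bp in replicate 3, although it ranked 26113, 15400 and 5805 in replicates 1, 2 and 3 and 7614 in the pooled list. Upstream of polo, in SCCRO4 coding sequence, a region lay 1469 bp from the first polo TSS in replicates 1 and 2. It lay at 1470 bp in replicate 3 and the pooled list. Its ranks were 10165, 2249 and 14036 in replicates 1, 2 and 3 and 4242 in the pooled list. Replicate 3 also had a stronger region there at 1797 bp, of rank 6118, and a weaker one at 1153 bp, of rank 24325. The recurring Mps1 and SCCRO4 regions are both outside the optimal set.

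Beyond the 3′ end of mad2, at the S6k start, replicate 1 had a region of rank 2279 and replicate 2 one of rank 2251, both among the 3276 strongest, with summits 7 and 268 bp from the S6k TSS. Replicate 3 had a region of rank 21039 there, 324 bp from that TSS. The pooled list had 2 regions there, of ranks 4440 and 5000, and neither reached the optimal set. These sites were singled out after their values were seen, and no test was made of them.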
